A study of Mus musculus with 6 samples.

Results

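Conventional αβ T cells of the mouse liver were sorted by how often their T cell receptor (TCR) recurred in the same library, and the genes of recurring cells were compared with those of cells whose receptor was seen in a single barcode. A cell belonged to the set when its barcode carried a productive α chain (TRA) and a productive β chain (TRB) and no α contig joining TRAV11 or TRAV11D to TRAJ18, the invariant rearrangement of natural killer T (NKT) cells. Barcodes were counted per clonotype as the authors' pipeline had numbered them. Clonotypes of 5 or more barcodes, other than the largest of each library, are called expanded clones here, and cells of clonotypes of exactly 1 are called singletons. The rule found 663 expanded cells in 75 clones and 5327 singletons, out of 6770 conventional T cells in 5668 clonotypes and of 23860 barcodes in all. After cell filters 614 expanded cells and 4937 singletons were left.

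The cells were CD45-positive mononuclear cells of mouse liver, read by droplet single-cell RNA sequencing together with the TCRs of the same cells. There were 3 groups with 1 RNA library and 1 TCR library each: wild-type (WT) mice on a diet with 60% fat (WT HFD), WT mice on that diet with 0.25% hyodeoxycholic acid, a bile acid (WT HFD+HDCA), and Ja18-/- mice, which lack the segment that invariant NKT cells need, on the diet with the bile acid (iNKT KO HFD+HDCA). All mice were fed for 12 weeks. The labels give no strain, sex, age or number of mice per library, and a normal diet named in the design was not analysed here. The knockout therefore differs from WT HFD in genotype and diet together, and no group has a replicate. The question the study design poses for the TCR reads is not stated in the sources used here. Triplets of values below stand in the order WT HFD first, WT HFD+HDCA next and the knockout last.

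A conventional T cell assembles its α and β chains by joining V, (for β) D, and J segments, trimming the ends and adding bases without a template, so that the join, called CDR3, is close to unique to each precursor. When such a cell meets its antigen and divides, its daughters carry the same pair of CDR3 sequences, and the size of a clonotype in a sample reads that history. Naive and central memory T cells keep the lymph node homing receptor CCR7. Other cells that have responded lose it and gain granzymes, chemokines and receptors for inflamed tissue. CD8 T cells kill targets that show peptides on MHC class I, and CD4 T cells help other cells or regulate them through MHC class II. The liver holds many antigen-experienced CD8 T cells, some of them resident.

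The receptors that define the 3 largest expanded clones of each library are shown first, because clone size was read from them. The lines give the CDR3 in nucleotides, 5′ to 3′. Capitals mark the bases at the join that most other sequences with the same V or the same J segment in these libraries do not carry.

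WT HFD clonotype 2, 16 cells, α chain, TRAV14D-3-DV8 and TRAJ4: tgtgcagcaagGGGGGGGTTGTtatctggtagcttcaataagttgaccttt
WT HFD clonotype 2, 16 cells, β chain, TRBV12-2+TRBV13-2 and TRBJ1-3: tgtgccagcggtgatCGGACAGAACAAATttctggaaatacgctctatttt
WT HFD clonotype 3, 12 cells, α chain, TRAV12-1 and TRAJ33: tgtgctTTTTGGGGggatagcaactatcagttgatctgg
WT HFD clonotype 3, 12 cells, β chain, TRBV3 and TRBJ2-3: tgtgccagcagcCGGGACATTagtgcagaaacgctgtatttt
WT HFD clonotype 4, 11 cells, α chain, TRAV7-5 and TRAJ9: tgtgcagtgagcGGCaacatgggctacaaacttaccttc
WT HFD clonotype 4, 11 cells, β chain, TRBV13-3 and TRBJ2-7: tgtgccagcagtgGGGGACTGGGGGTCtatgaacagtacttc

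WT HFD+HDCA clonotype 2, 19 cells, α chain, TRAV12D-3 and TRAJ22: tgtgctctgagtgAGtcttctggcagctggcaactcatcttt
WT HFD+HDCA clonotype 2, 19 cells, β chain, TRBV3 and TRBJ2-5: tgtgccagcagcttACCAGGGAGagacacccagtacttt
WT HFD+HDCA clonotype 3, 18 cells, α chain, TRAV10 and TRAJ58: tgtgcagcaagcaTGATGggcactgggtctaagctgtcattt
WT HFD+HDCA clonotype 3, 18 cells, β chain, TRBV13-1 and TRBJ1-1: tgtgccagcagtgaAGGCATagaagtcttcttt
WT HFD+HDCA clonotype 4, 16 cells, α chain, TRAV6N-6 and TRAJ43: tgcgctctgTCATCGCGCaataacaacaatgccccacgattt
WT HFD+HDCA clonotype 4, 16 cells, β chain, TRBV3 and TRBJ2-7: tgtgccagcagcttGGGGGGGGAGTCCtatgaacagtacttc

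iNKT KO HFD+HDCA clonotype 2, 33 cells, α chain, TRAV5N-4 and TRAJ5: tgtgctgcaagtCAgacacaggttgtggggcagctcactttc
iNKT KO HFD+HDCA clonotype 2, 33 cells, β chain, TRBV3 and TRBJ2-1: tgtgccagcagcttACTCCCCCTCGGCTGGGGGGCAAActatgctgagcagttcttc
iNKT KO HFD+HDCA clonotype 4, 22 cells, α chain, TRAV14D-3-DV8 and TRAJ57: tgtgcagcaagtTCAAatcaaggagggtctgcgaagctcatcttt
iNKT KO HFD+HDCA clonotype 4, 22 cells, β chain, TRBV12-2+TRBV13-2 and TRBJ1-3: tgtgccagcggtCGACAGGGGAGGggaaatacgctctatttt
iNKT KO HFD+HDCA clonotype 6, 18 cells, α chain, TRAV12N-2 and TRAJ17: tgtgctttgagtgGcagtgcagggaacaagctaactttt
iNKT KO HFD+HDCA clonotype 6, 18 cells, β chain, TRBV20 and TRBJ2-1: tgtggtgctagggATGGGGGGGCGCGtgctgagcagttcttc

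Capitals at the join ranged from a single base to a long run, and no pair of these clones shared a CDR3. The largest clonotype of each library, left out of the expanded class by the rule, held 83, 31 and 41 barcodes and joined TRAV7-5 to TRAJ26, TRAV6D-6 to TRAJ30 and TRAV13N-3 to TRAJ50. In the 2 WT libraries 98.7% and 100% of the kept cells of that clonotype were CD8 cells by their co-receptor UMIs, and in the knockout 2.56% were.

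Sharing of a CDR3 between libraries was rare, and no pair of α and β was shared. The following α or β CDR3 of an expanded clone was also found in another library, in each case in a singleton. The segments named are those of the expanded clone. The capitals have the same meaning.

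WT HFD clonotype 5, 10 cells, α chain, TRAV14N-3 and TRAJ9, also in WT HFD+HDCA: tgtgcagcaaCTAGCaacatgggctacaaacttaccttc
WT HFD clonotype 8, 10 cells, α chain, TRAV6D-6 and TRAJ7, also in WT HFD+HDCA: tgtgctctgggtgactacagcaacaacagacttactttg
WT HFD+HDCA clonotype 7, 10 cells, α chain, TRAV16 and TRAJ43, also in WT HFD: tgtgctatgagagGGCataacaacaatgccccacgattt
iNKT KO HFD+HDCA clonotype 25, 6 cells, α chain, TRAV3-3 and TRAJ12, also in WT HFD+HDCA: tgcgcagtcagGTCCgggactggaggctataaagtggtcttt
WT HFD+HDCA clonotype 6, 14 cells, β chain, TRBV19 and TRBJ2-7, also in WT HFD: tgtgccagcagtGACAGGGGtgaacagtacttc

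Of the expanded clones, 2, 1 and 2 had their α CDR3 in another library and 0, 1 and 0 their β CDR3, of 18, 31 and 26. These matches are of the CDR3 bases alone. The J segment was the same in both libraries, but the V segment was the same for clonotype 8 of WT HFD only. In the singletons it was TRAV7D-2 for clonotype 5 of WT HFD, TRAV13N-3 for clonotype 7 and TRBV13-3 for clonotype 6 of WT HFD+HDCA. It was TRAV3N-3 for clonotype 25 and TRAV13-2 for clonotype 3 of the knockout. The α CDR3 of clonotype 8 of WT HFD carried no capital at all, that is, it had no base that most sequences with its V or J lacked. The fifth α chain, of clonotype 3 of the knockout, is printed further on. In each library a single expanded clone, 1 of 18, 1 of 31 and 1 of 26, also had the pair of CDR3 sequences of some of its cells in a singleton of its own library, which the authors' numbering had kept apart.

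The expanded class was a small part of each library. It made up 8.09% of conventional T cells in WT HFD (exact 95% interval 6.92% to 9.38%), 9.56% in WT HFD+HDCA (8.50% to 10.7%) and 11.8% in iNKT KO HFD+HDCA (10.4% to 13.3%). These cells fell into 18, 31 and 26 clones, the largest of 16, 19 and 33 barcodes. Just inside the rule were 4, 7 and 7 clonotypes of 5 barcodes, and just outside it 6, 13 and 6 clonotypes of 4. Clonotypes of 2 to 4 barcodes, which belong to neither class, held 625 cells in 263 clonotypes. Since the class was defined by these counts, they are a description with no test, and intervals throughout cover counting error alone.

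Depth per cell differed little between libraries but did differ between the classes. The libraries held 6479, 10228 and 7153 barcodes with 44332213, 70776925 and 46600746 unique molecular identifiers (UMIs). The median expanded cell had 5755.5, 5558 and 5593 UMIs and the median singleton 7354.5, 7507 and 7563. Pairs of libraries shared 67 to 93 barcode sequences, 6 to 10 of them among conventional T cells, and none of those had the same CDR3. The label of the knockout held in the receptors, with 356, 495 and 1 barcodes carrying the invariant α join. Although the labels name a kit for the 3′ end, V segments had 2.23, 2.44 and 2.60 times the UMIs of the TCR constant genes, so that reads reached the 5′ part of the transcripts. The design text names a sort for CD45, and a treatment note names CD4 instead.

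Expanded clones were mostly CD8 in the WT libraries. A clone was called CD8 or CD4 when at least 90% of its co-receptor UMIs (Cd4, Cd8a and Cd8b1), of which it needed 3, were of that side. In WT HFD 12 of 18 expanded clones were CD8 (66.7%, exact interval 41.0% to 86.7%), 5 were CD4 and 1 was mixed. In WT HFD+HDCA 24 of 31 were CD8 (77.4%, 58.9% to 90.4%) and 7 were CD4. The knockout had 13 CD8 clones of 26 (50%, 29.9% to 70.1%), 7 CD4 clones and 6 with too few co-receptor UMIs to call. The intervals of the 3 libraries overlap.

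**Figure D1:**
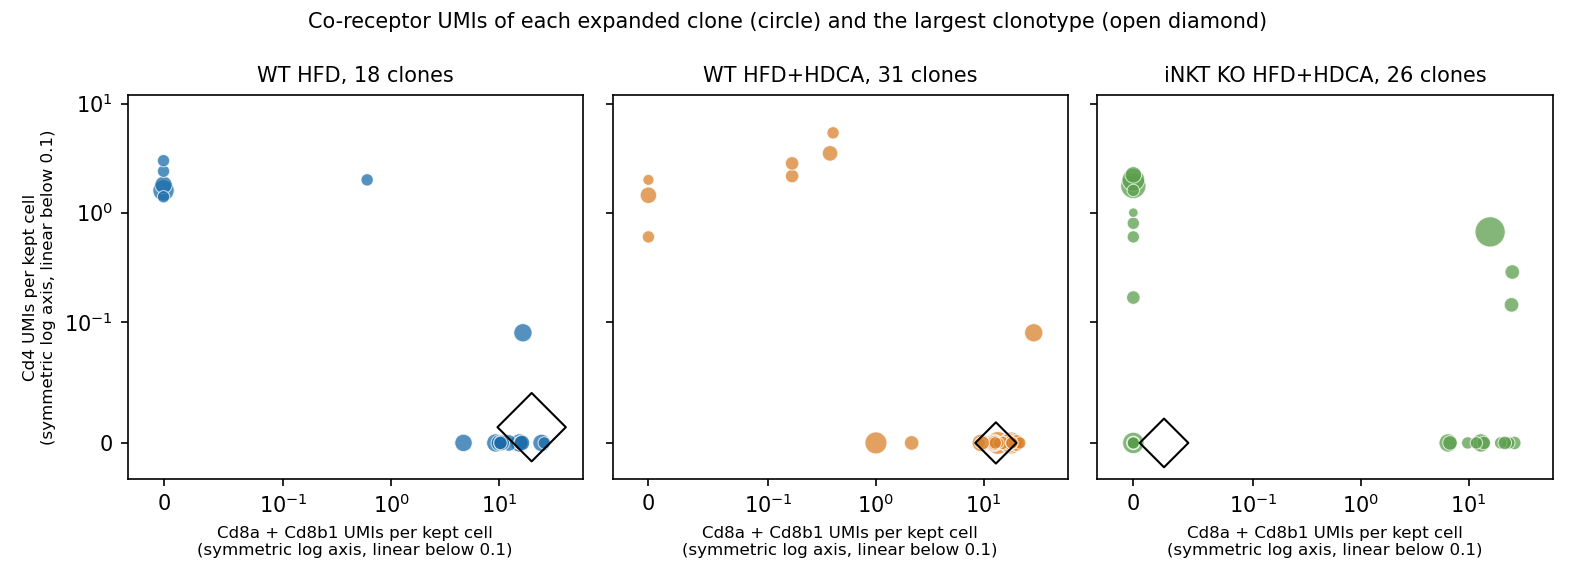
Cd4 UMIs per kept cell (vertical, symmetric log axis) against Cd8a and Cd8b1 UMIs per kept cell (horizontal, symmetric log axis) for each expanded clone, 1 circle per clone with its area set by the number of cells; open diamonds are the largest clonotypes. Clones sit along either axis, and in iNKT KO HFD+HDCA 5 clones lie at 0 on both.

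Within a clone, the cells called CD4 or CD8 were of 1 kind. Cells with UMIs of both sides, 2, 7 and 14 expanded cells, are called neither and were set aside here. Every expanded clone with at least 2 called cells had a single phenotype, 18 of 18, 31 of 31 and 19 of 19 clones. The same held for 43 of 43, 96 of 97 and 51 of 51 clonotypes of 2 to 4 cells. CD8 clones had a median of 13.9, 14.3 and 15.8 Cd8a and Cd8b1 UMIs per cell, whereas CD4 clones had a median of 1.8, 2.17 and 1.6 Cd4 UMIs per cell, so a missed co-receptor is more likely in a CD4 cell. The mixed clone, clonotype 16 of WT HFD, had 10 Cd4 and 3 Cd8b1 UMIs in 5 cells. No UMI of the other side was found in 11 of 12, 23 of 24 and 10 of 13 CD8 clones and in 5 of 5, 3 of 7 and 7 of 7 CD4 clones. Clonotype 2 of the knockout had 20 Cd4 UMIs beside 154 Cd8a and 321 Cd8b1 UMIs in 30 kept cells and was called CD8.

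Counted over cells, with CD8 meaning a Cd8a or Cd8b1 UMI and no Cd4 UMI, 68.7%, 79.4% and 44.7% of expanded cells were CD8 against 42.8%, 50.6% and 55.6% of singletons. The expanded class had the larger CD8 share in both WT libraries and the smaller in the knockout. CD4 cells were 22.7%, 12.6% and 24.9% of expanded cells and 34.1%, 23.9% and 23.1% of singletons. Cells with no co-receptor UMI were 7.33%, 5.26% and 24.0% of expanded cells and 18.1%, 21.7% and 16.9% of singletons. With each cell thinned to 2000 UMIs the CD8 shares were 66.7%, 76.1% and 46.8% of expanded cells against 39.3%, 46.5% and 50.8% of singletons, so the order was kept at equal depth. That step left out 0, 0 and 1 expanded cells and 4, 6 and 8 singletons with fewer UMIs. Thinned cells with no co-receptor UMI were 18%, 14.6% and 36.6% of expanded cells and 40.7%, 39.2% and 34.6% of singletons. In the knockout these intervals overlap (30.1% to 43.4% and 32.1% to 37.1%). Its larger share among expanded cells was therefore not clear at equal depth. In cells with B cell markers, which should lack both genes, 0.539%, 0.607% and 0.445% had a Cd4 UMI and 1.21%, 1.10% and 1.71% a Cd8a or Cd8b1 UMI, at medians of 4515, 4411 and 4238 UMIs per cell.

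Genes of naive and central memory T cells were lower, and granzymes, chemokines, inhibitory receptors and dividing-cell genes higher, in expanded clones than in singletons of all 3 libraries. UMIs were summed per library and class and tested with edgeR's quasi-likelihood test with the library as a block. Of 11945 genes tested, 1313 were higher in expanded cells (11% of genes tested) and 1242 lower (10.4%), 21.4% in either direction, at an adjusted p under 0.05. The p-values rest on 3 libraries that are different diets and genotypes, so their spread includes any difference of the contrast between these, and the cells are not replicates. Levels are counts of UMIs per 1000000 UMIs of the class (CPM), and such a sum does not tell more cells with the gene from more UMIs in each.

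All 12 tested genes of the naive and central memory list were lower, with a median log2 fold change of -2.75 beside -0.002 over all genes tested. Ccr7 (ENSMUSG00000037944), the receptor that guides T cells into lymph nodes, was at 13.5, 41.4 and 7.28 CPM in expanded cells and 525, 476 and 546 in singletons. The classes did not overlap, and expanded cells of WT HFD+HDCA kept the most (log2 fold change -4.74, SE 0.33, edgeR adjusted p = 1.27e-05). The transcription factor Lef1 was at 144, 130.3 and 111 CPM in expanded cells and 645, 528 and 553 in singletons (log2 fold change -2.34, SE 0.09, edgeR adjusted p = 7.45e-07). Il7r, the receptor for the survival cytokine IL-7, fell less, from 667, 611 and 673 CPM in singletons to 266, 246 and 196 in expanded cells (log2 fold change -1.65, SE 0.10, edgeR adjusted p = 8.94e-06). Igfbp4, which encodes an insulin-like growth factor binding protein and marks naive T cells, had 2 UMIs in all expanded cells and 12332 in singletons.

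Of the 10 tested cytotoxic genes 8 were higher and none lower (median log2 fold change 1.49). Gzmk (ENSMUSG00000042385), a granzyme of memory-type CD8 cells, was at 312, 615 and 379 CPM in expanded cells and 35.8, 39.7 and 35.3 in singletons. Expanded cells were at 8.73, 15.5 and 10.7 times the level of singletons of their own library, with no overlap (log2 fold change 3.34, SE 0.15, edgeR adjusted p = 1.89e-06). Gzma was at 1186, 509 and 1188 CPM in expanded cells and 68.4, 100 and 148 in singletons (log2 fold change 2.97, SE 0.26, edgeR adjusted p = 4.98e-05), with the lowest expanded level in WT HFD+HDCA. Gzmb, the granzyme that cleaves caspases in target cells, was at 402, 239.5 and 968 CPM in expanded cells and 49.6, 51.3 and 106 in singletons (log2 fold change 2.64, SE 0.16, edgeR adjusted p = 7.49e-06), highest in the knockout. Nkg7, a protein of cytotoxic granules, Prf1, which encodes perforin, and Fasl, the ligand of the death receptor Fas, were higher as well, by 1.57, 1.40 and 1.65 on the log2 scale. Gzmm (0.28, adjusted p = 0.577) and Ctsw (0.36, adjusted p = 0.112) did not pass.

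**Figure D2:**
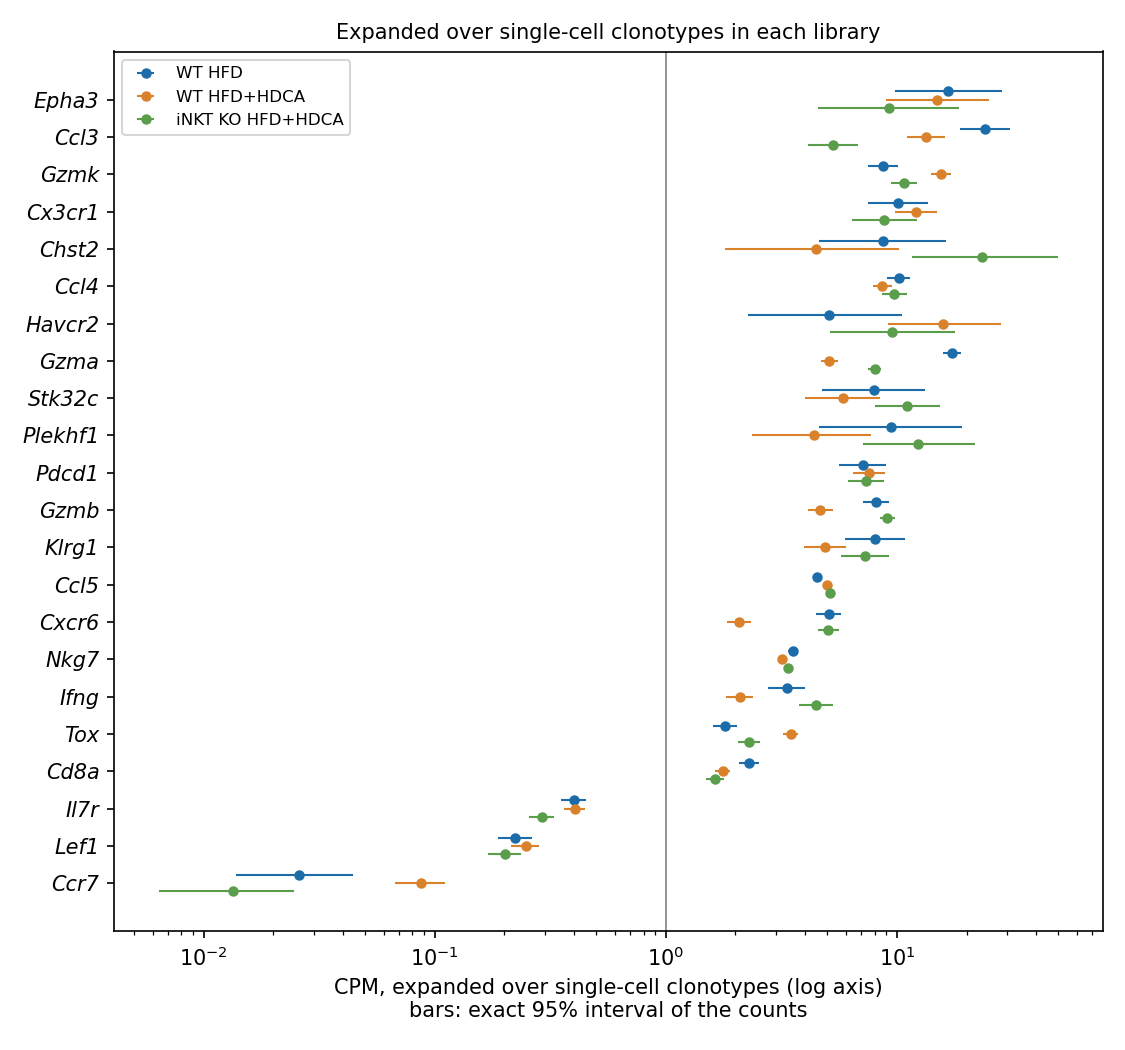
Ratio of CPM in expanded cells to that in singletons (horizontal, log axis) for named genes, 1 point per library with its exact 95% interval of the counts. In each of the 3 libraries Gzmk, Ccl5, Pdcd1 and Klrg1 lie above 1 and Il7r, Lef1 and Ccr7 below 1.

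Among secreted factors 8 of 11 tested genes were higher and none lower (median log2 fold change 1.80). Ccl5, the chemokine that effector T cells store and release, was at 15666, 22978 and 16229.8 CPM in expanded cells and 3492, 4625 and 3161 in singletons (log2 fold change 2.10, SE 0.06, edgeR adjusted p = 6.95e-08). The ratio was alike in the libraries, 4.49, 4.97 and 5.13. Ccl3, an inflammatory chemokine, was at 205, 159.9 and 77.2 CPM in expanded cells and 8.55, 12.0 and 14.6 in singletons (log2 fold change 3.41, SE 0.31, edgeR adjusted p = 6.75e-05), and its neighbour in function Ccl4 at 537, 528 and 403 CPM in expanded cells and 52.9, 61.1 and 41.3 in singletons (log2 fold change 3.07, SE 0.08, edgeR adjusted p = 6.95e-08). Ifng, the macrophage-activating cytokine interferon γ, was at 155, 155 and 154 CPM in expanded cells and 46.6, 74.4 and 34.7 in singletons (log2 fold change 1.45, SE 0.17, edgeR adjusted p = 3.22e-04). Il10, an anti-inflammatory cytokine, rested on 34 UMIs in expanded cells (5.21, 11.1 and 8.01 CPM against 2.26, 4.09 and 0.836) (log2 fold change 1.70, SE 0.47, edgeR adjusted p = 0.0287), and was not past the threshold without the knockout (adjusted p = 0.14).

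Homing and residency genes were higher in 10 of 12 cases (median log2 fold change 1.43). Cxcr6, a receptor that holds T cells in the liver sinusoids, was at 361, 207 and 421 CPM in expanded cells and 71.3, 99.6 and 83.4 in singletons (log2 fold change 1.74, SE 0.21, edgeR adjusted p = 4.08e-04). The gain was smallest in WT HFD+HDCA, with a ratio of 2.08 (1.84 to 2.34) beside 5.07 (4.46 to 5.75) in WT HFD and 5.05 (4.55 to 5.60) in the knockout. Itga1, the α1 integrin that binds collagen, and Zfp683, which encodes the residency factor Hobit, passed with opposite movement in 1 library. Their ratios were 10.0 and 10.6 in WT HFD and 9.13 and 7.82 in the knockout, but 0.304 and 0.427 in WT HFD+HDCA. Neither was past the threshold without WT HFD (edgeR adjusted p = 0.222 and 0.108) or without the knockout (0.172 and 0.127). The other 2 members were lower: Itgae, the αE integrin CD103 (4 UMIs in all expanded cells), and Cd69, an activation and retention marker (-0.64, adjusted p = 3.26e-04).

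In the list of inhibitory receptors and Tox 9 of 10 genes were higher and Btla was lower (median log2 fold change 1.74). Of these calls, Cd160 was lost without WT HFD, and Ctla4 without WT HFD+HDCA and without the knockout. Both were lost with DESeq2 and without doublet removal, and Btla was lost without doublet removal. Pdcd1 (ENSMUSG00000026285), which encodes PD-1, was at 123, 161 and 162 CPM in expanded cells and 17.3, 21.3 and 22 in singletons. The ratio was alike in the 3 libraries, at 7.11, 7.57 and 7.36 (log2 fold change 2.70, SE 0.09, edgeR adjusted p = 5.21e-07). Tox, a nuclear factor of chronically stimulated T cells, was at 322, 532 and 308 CPM in expanded cells and 178, 153 and 135 in singletons (log2 fold change 1.12, SE 0.15, edgeR adjusted p = 7.72e-04). Havcr2, which encodes TIM-3, was at 11.5, 21.6 and 17.5 CPM in expanded cells and 2.26, 1.36 and 1.84 in singletons (log2 fold change 3.06, SE 0.40, edgeR adjusted p = 6.48e-04).

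Effector and memory factors split: 8 of 11 were higher and Id3, Ly6c2 and Bcl2 lower. Cx3cr1, the fractalkine receptor of circulating effector cells, was at 86.4, 123 and 57.5 CPM in expanded cells and 8.55, 10.2 and 6.52 in singletons (log2 fold change 3.21, SE 0.14, edgeR adjusted p = 1.89e-06). Klrg1, a receptor of short-lived effector cells, was at 80.2, 82.7 and 94.0 CPM in expanded cells and 9.98, 16.9 and 13.0 in singletons (log2 fold change 2.51, SE 0.15, edgeR adjusted p = 8.60e-06). S1pr5, Zeb2, Tbx21, Eomes, Prdm1 and Id2 made up the rest of those that rose. All 11 genes of dividing cells were higher, with a median log2 fold change of 1.28, among them Mki67 (1.46) and Stmn1 (1.05).

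Among other T cell groups, Foxp3, the factor of regulatory T cells, had 2 UMIs in all expanded cells against 887 in singletons (edgeR adjusted p = 9.71e-05), and Il2ra and Izumo1r were lower too, 3 of 7 tested genes of that list. Of the NK-type receptors 1 of 9 passed, Cd7. Of the helper genes Cd40lg was higher and Tnfsf8 lower, of 9, the former not without WT HFD (edgeR adjusted p = 0.126) or without the knockout (0.2). Of the immediate early genes Nr4a2 was higher and Nr4a3, Fos, Jun and Junb lower, of 11. Of the TCR complex 5 of 7 were higher, Cd3e, Cd3g, Lat, Lck and Zap70. Without WT HFD the adjusted p of Junb, Izumo1r and Lck was 0.193, 0.12 and 0.117, without WT HFD+HDCA that of Nr4a3, Lck and Il2ra was 0.0582, 0.0726 and 0.0564, and without the knockout that of Nr4a3 was 0.0552. In all, 13, 5 and 7 of the named genes and list members called were lost without WT HFD, WT HFD+HDCA and the knockout in turn. The co-receptor genes Cd8a (log2 fold change 0.72, SE 0.10, edgeR adjusted p = 7.53e-04) and Cd8b1 (log2 fold change 0.57, SE 0.14, edgeR adjusted p = 0.0182) were higher, the latter not without WT HFD (adjusted p = 0.102), and Cd4 (-0.11, adjusted p = 0.593) did not pass. Zbtb16, the factor PLZF of innate-like T cells, did not pass either (adjusted p = 0.968), with no UMI in expanded cells of WT HFD and 34 UMIs in those of the knockout.

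Ranked by fold change, the 10 highest named genes were Epha3, Ccl3, Gzmk, Cx3cr1, Chst2, Ccl4, Havcr2, Gzma, Stk32c and Plekhf1. Epha3, an ephrin receptor kinase, headed them at 37.5, 24.7 and 13.8 CPM in expanded cells and 2.26, 1.66 and 1.5 in singletons (log2 fold change 3.57, SE 0.33, edgeR adjusted p = 6.43e-05). Chst2, a sulfotransferase, was at 19.8, 5.56 and 23.3 CPM in expanded cells and 2.26, 1.25 and 1.0 in singletons and Stk32c, a kinase, at 28.1, 29.0 and 64.8 CPM in expanded cells and 3.52, 4.98 and 5.85 in singletons. Of the 10 lowest genes 9 had no UMI in any expanded cell, and the exception was Igfbp4. Against a floor of 3 UMIs over the expanded class they were at least 25.2-fold lower (Klra6), 22.8-fold (Auts2), 11.2-fold (Slc16a5), 9.92-fold (BC106179) and 9.60-fold (Rnf32), with Gabrr2, Klra5, Drc1 and Prrg4 at least 6.01- to 8.60-fold lower. Klra5 and Klra6 belong to the Ly49 family of closely similar genes, whose reads the counting may divide among copies.

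Markers of other cells moved with the classes in part. Of 8 myeloid markers 5 were tested and 4 were higher in expanded cells, Lyz2, Cst3, Csf1r and Ccr2, of which Ccr2 is also made by effector T cells. Their summed level was 560.3, 649 and 795 CPM in expanded cells and 243, 281 and 306 in singletons. Without cells that had 3 or more UMIs of B cell or myeloid markers the test called 2654 genes, against 2555 with them. The B cell list had Ighm lower and no other change in 6 genes, at 409, 633 and 414 CPM against 754, 514 and 699. Hepatocyte and platelet or red cell markers summed to at most 4.32 CPM in either class, and of the 4 endothelial markers Clec4g, Kdr and Stab2 were at 0 in expanded cells. The fourth, Pecam1, which leukocytes carry as well, was lower, at 17.7, 30.3 and 23.3 CPM in expanded cells and 94.2, 87.2 and 73.1 in singletons (log2 fold change -1.96, SE 0.16, edgeR adjusted p = 2.93e-05), and was called lower in CD8 and in CD4 cells too.

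CD8 cells were then compared alone, since the classes held different shares of CD4 and CD8 cells. Of 10636 genes tested in CD8 cells, 1391 were higher in expanded clones (13.1% of genes tested) and 1287 lower (12.1%), 25.2% in either direction. The groups described above kept their direction: 11 of 12 naive and central memory genes were lower (Klf2 was not past the threshold), and 8 of 10 cytotoxic genes, 6 of 8 secreted factors, 10 of 12 homing genes, 9 of 10 inhibitory receptors and Tox, 8 of 11 effector genes and 10 of 11 dividing-cell genes were higher. Their medians were -2.79, 1.48, 1.95, 1.62, 2.16, 1.83 and 1.58 on the log2 scale, beside -0.006 over all genes tested. The median CD8 cell had 5525, 5661 and 5343 UMIs in expanded clones and 8602, 8526 and 8729.5 among singletons.

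Within CD8 cells Gzmk was at 459, 719.6 and 515 CPM in expanded cells and 36.3, 46.4 and 47.4 in singletons (log2 fold change 3.48, SE 0.11, edgeR adjusted p = 3.60e-11). Pdcd1 entered the 6 highest genes there, at 154, 118 and 193 CPM in expanded cells and 13.6, 12.0 and 12.0 in singletons (log2 fold change 3.36, SE 0.14, edgeR adjusted p = 4.27e-10). Expanded cells exceeded singletons in every library for both genes. Klrg1 was at 108, 98.2 and 80.1 CPM in expanded cells and 5.24, 9.58 and 11.2 in singletons (log2 fold change 3.22, SE 0.22, edgeR adjusted p = 4.00e-08), and Tox at 442, 529 and 371 CPM in expanded cells and 126, 130.0 and 108 in singletons (log2 fold change 1.66, SE 0.09, edgeR adjusted p = 3.01e-09). Epha3, Ccl3, Cx3cr1 and Prr5l, a component of the mTORC2 kinase complex, completed the highest 6, at log2 fold changes of 4.34, 3.67, 3.46 and 3.24.

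NK-type receptors and adaptors were higher for 6 of 9 genes, Klrc1, Klrk1, Klre1, Fcer1g, Tyrobp and Cd7, with a median log2 fold change of 0.69. Fcer1g and Tyrobp, adaptors that myeloid cells also carry, went from 0.50 and 0.84 to -0.13 (edgeR adjusted p = 0.777) and 0.29 (0.549) without cells of 3 or more B cell or myeloid marker UMIs, whereas Klrc1, Klrk1, Klre1 and Cd7 stayed past the threshold there. Type I interferon response genes were higher for 5 of 10, among them Isg15 (0.98, adjusted p = 9.91e-06), and lower for 1, Usp18. Of the TCR complex, Cd3e, Cd3g, Lat, Lck and Zap70 were among the genes that rose, by at most 0.61 on the log2 scale. The lowest genes were Tmem108, with no UMI in expanded cells against 1127 in singletons and so at least 42.3-fold lower, Auts2, Klra1 and Klra6, at least 16.4- to 20.8-fold lower, Igfbp4 (1 UMI against 4218) and Slpi, a secreted protease inhibitor, at least 11.6-fold lower. Myeloid markers again stood higher in expanded cells, 3 of 4 tested, at 176, 663 and 475 CPM against 131, 180 and 219, and 2825 genes were called without the cells just named.

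CD4 cells had fewer expanded cells, 34, 31 and 54 against 500, 493 and 326 singletons, and gave fewer calls. Of 8968 genes tested in CD4 cells, 251 were higher in expanded clones (2.8% of genes tested) and 316 lower (3.52%), 6.32% in either direction. The number of calls was 311 without WT HFD and 311 without the knockout. All 12 naive and central memory genes were lower (median log2 fold change -2.66 beside -0.013 over all genes). Of homing genes 10 of 11 were higher (1.71), of secreted factors 7 of 10 (2.12) and of cytotoxic genes 5 of 9 (1.95). Inhibitory receptors and Tox were higher for 2 of 8, Pdcd1 and Entpd1, and no dividing-cell gene of 10 passed.

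In CD4 cells Cxcr6 was at 490.2, 457 and 462 CPM in expanded cells and 60.3, 106 and 71.0 in singletons (log2 fold change 2.45, SE 0.19, edgeR adjusted p = 4.17e-05), higher in every library. Ifng was at 194, 172 and 237 CPM in expanded cells and 35.8, 55.0 and 31.2 in singletons (log2 fold change 2.19, SE 0.24, edgeR adjusted p = 2.53e-04). Tbx21, which encodes the T helper 1 factor T-bet, was among the genes that rose (log2 fold change 2.17, SE 0.21, edgeR adjusted p = 1.42e-04). Foxp3 had no UMI in expanded CD4 cells and 534 in singletons, at least 15.0-fold lower at this depth. Gzma (2.26, adjusted p = 0.161), Gzmk (1.95, adjusted p = 0.0751), Klrg1 (1.09, adjusted p = 0.384) and Tox (0.05, adjusted p = 0.967) did not pass. Gzma and Gzmk passed without WT HFD (adjusted p = 0.0168 and 0.00918) and Klrg1 without WT HFD+HDCA (0.0414).

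The highest genes of CD4 cells were Lilrb4b and Lilrb4a, a pair of inhibitory receptors, Itga1, Serpina3f, Socs2, a suppressor of cytokine signalling, and Gzmb. Lilrb4a was at 359, 152 and 114 CPM in expanded cells and 21.1, 28.4 and 23.5 in singletons and Lilrb4b at 296, 114 and 63.3 CPM in expanded cells and 16.6, 15.6 and 13.6 in singletons; these genes are near copies of each other, so their separate values are uncertain. Itga1 was at 194, 9.53 and 142 CPM in expanded cells and 13.5, 8.55 and 17.2 in singletons (log2 fold change 2.84, SE 0.43, edgeR adjusted p = 0.0023), and Gzmb at 50.7, 71.5 and 481 CPM in expanded cells and 15.5, 33.0 and 23.5 in singletons (log2 fold change 2.58, SE 0.52, edgeR adjusted p = 0.0126). Itga1 was not past the threshold without WT HFD (adjusted p = 0.0572), and Gzmb, Serpina3f and Ggt5 were not without the knockout (adjusted p = 0.158, 0.378 and 0.0526). The lowest genes besides Foxp3 were Igfbp4 and Dapl1, both naive markers, at least 157- and 45.4-fold lower, Slc28a2b, Pdlim4 and Ggt5. Of the myeloid markers 1 of 4 tested was higher, Ccr2, and the summed level was 947, 767 and 598 CPM against 278, 619 and 405. Without cells of 3 or more B cell or myeloid marker UMIs 664 genes were called in CD4 cells.

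Most singletons carried naive genes, so both classes were compared again among cells without them. Cells with no UMI of 5 naive genes, among them Ccr7, Lef1, Dapl1 and Igfbp4, made up 41.3%, 40.9% and 57.6% of expanded cells and 5.45%, 7.58% and 7.45% of singletons. At 2000 UMIs per cell these shares were 70.7%, 65.6% and 77.8% against 15.2%, 20.4% and 17.8%. The gate left 42, 78 and 54 expanded CD8 cells and 20, 49 and 35 CD8 singletons, with medians of 5490, 5293.5 and 5323 UMIs against 5141.5, 5829 and 6251. The gate chooses cells in part by depth, and small sums test fewer genes.

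Among those CD8 cells, 4 of 4660 genes differed (0.0858% of genes tested), 2 higher (0.0429%) and 2 lower (0.0429%), of which 3 were Trbv segments. The single call outside the TCR was Gzma, at 1957, 839 and 2287 CPM in expanded cells and 739, 284 and 1298 in singletons (log2 fold change 1.19, SE 0.14, edgeR adjusted p = 0.00292). Expanded cells were higher in each library, although the ranges of the classes over the 3 libraries overlapped, and Gzma was past the threshold in 14 of 17 alternatives. At an unadjusted p under 0.05 there were 262 genes, and the calls numbered 12, 7 and 29 without WT HFD, WT HFD+HDCA and the knockout in turn. Without the knockout Ccl5, Nkg7 and Tox also passed (adjusted p = 6.97e-09, 0.00587 and 4.09e-04). With at most 5 cells taken per clonotype no gene was called. Of 1380 genes outside the TCR called higher in all CD8 cells, 947 were tested under the gate, where their median log2 fold change went from 0.59 to 0.15 with a median standard error of 0.25, and 679 kept their sign. Of 1267 called lower, 592 were tested, with a median from -0.60 to -0.12, and 406 kept their sign. These genes were chosen by their calls in all CD8 cells, and the gated cells are part of those. Neither the smaller medians nor the kept signs are therefore a separate test.

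The medians of the 10 plotted gene lists were nearer 0 too, whereas that of the helper list went from -0.29 to -0.35 and that of the B cell markers from 0.16 to -0.65. The naive and central memory list cannot inform here, since the gate was set on 5 of its genes and these were left out of the gated results. Tested members went from 12 to 5 in that list and from 11 to 4 in the dividing-cell list, so some medians run over different genes. Medians under the gate were 0.23 for cytotoxic genes, 0.56 for inhibitory receptors and Tox, -0.07 for homing genes, 0.22 for effector factors and -0.33 for NK-type receptors, and Gzma was the only list member called. Gzmk was at 575, 755 and 514 CPM in expanded cells and 351, 477 and 554 in singletons (adjusted p = 0.861), Pdcd1 at 239.9, 177 and 236 CPM in expanded cells and 95.1, 121 and 172 in singletons (adjusted p = 0.842) and Ccl5 at 22765, 30598 and 24805 CPM in expanded cells and 17026, 20498 and 22111 in singletons (adjusted p = 0.291). These levels in gated singletons were above those in all CD8 singletons. A missed threshold does not show that gated cells of both classes were alike.

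**Figure D3:**
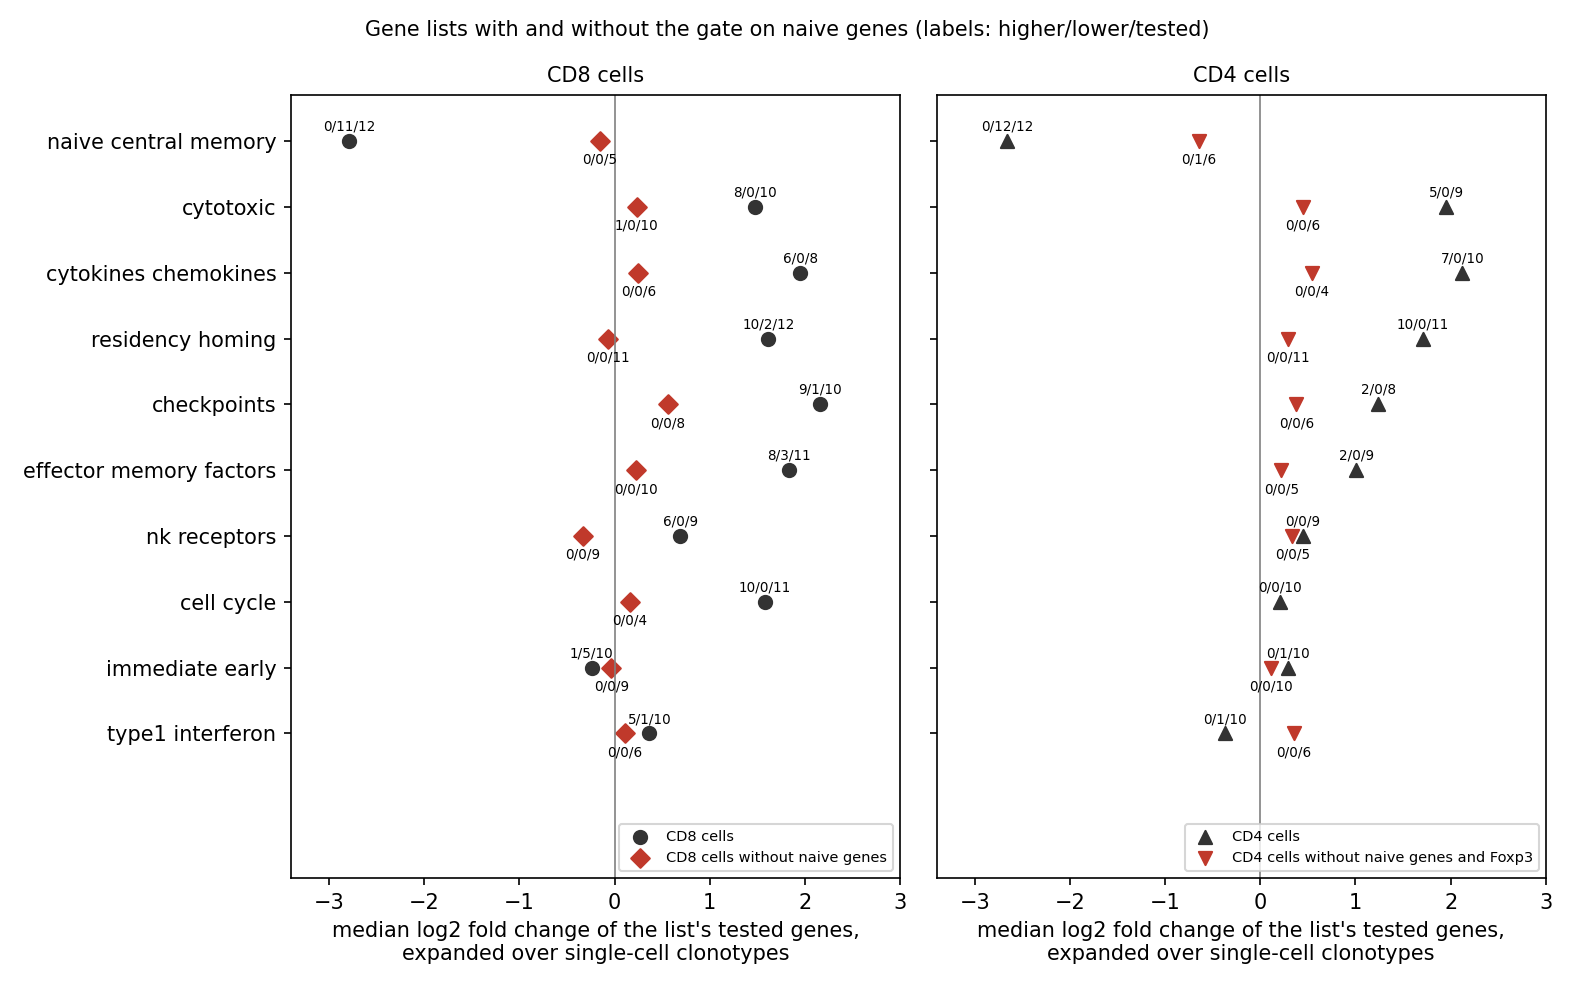
Median log2 fold change (horizontal) of each gene list, expanded over singletons, in CD8 cells (left) and CD4 cells (right), with all cells of that phenotype in black and cells without naive genes in red; labels give members higher, lower and tested. The black medians of the cytotoxic list, 1.48 and 1.95, lie to the right of the gated ones, 0.23 and 0.45.

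The CD4 gate, which also asked for no Foxp3 UMI and was added after the data were seen, left 15, 16 and 30 expanded cells and 34, 55 and 32 singletons. There 3 of 3377 genes differed (0.0888% of genes tested), none higher and 3 lower (0.0888%): the segments Trbv1 and Trbv3, and Il7r (log2 fold change -0.94, SE 0.19, edgeR adjusted p = 0.0498). Il7r was at 237, 381 and 319 CPM in expanded cells and 525, 603 and 653 in singletons. It was past the threshold in 6 of 16 alternatives, and not without WT HFD (adjusted p = 0.38) or without the knockout (0.667). At an unadjusted p under 0.05 there were 194 genes, and the number of calls was 51 without WT HFD+HDCA and 0 without the knockout. Of 250 genes called higher in all CD4 cells, 191 were tested under the gate, with a median log2 fold change from 1.12 to 0.26, and of 301 called lower 192, with a median from -0.78 to -0.17. These genes too were chosen by their calls in the cells from which the gate was drawn, so the smaller medians are not a separate test.

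Levels were followed through the clone sizes between the compared classes in CD8 cells, for clonotypes of 1, 2, 3 to 4, 5 to 9 and 10 or more barcodes. Gzmk was at 36.3, 347, 433, 672 and 356 CPM in WT HFD, at 46.4, 319, 504, 580.1 and 821 in WT HFD+HDCA and at 47.4, 318, 546, 506 and 532 in the knockout. Its step from clonotypes of 1 to clonotypes of 2 was the steepest in proportion in every library. In the 3 libraries in turn Ccl5 was at 4428, 16835, 19479, 23646 and 20894, at 4687, 20277, 21151, 22268 and 30557 and at 3489.9, 10439.8, 19704, 21391 and 26599.7. Pdcd1 went on rising beyond size 2, at 13.6, 61.2, 82.9, 125 and 168, at 12.0, 56.3, 71.2, 158 and 89.2 and at 12.0, 46.3, 138, 204 and 169, although not at every step. Ccr7 was at 484, 67.1, 75.3, 38.4 and 9.31, at 501, 98.9, 28.2, 38.7 and 38.6 and at 564, 307, 23.0, 17.0 and 0. Gzma followed no common course, at 91.2, 1047, 188, 1565 and 1873, at 117, 841, 571, 691 and 578 and at 126, 538, 460.1, 1691 and 1533.

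**Figure D4:**
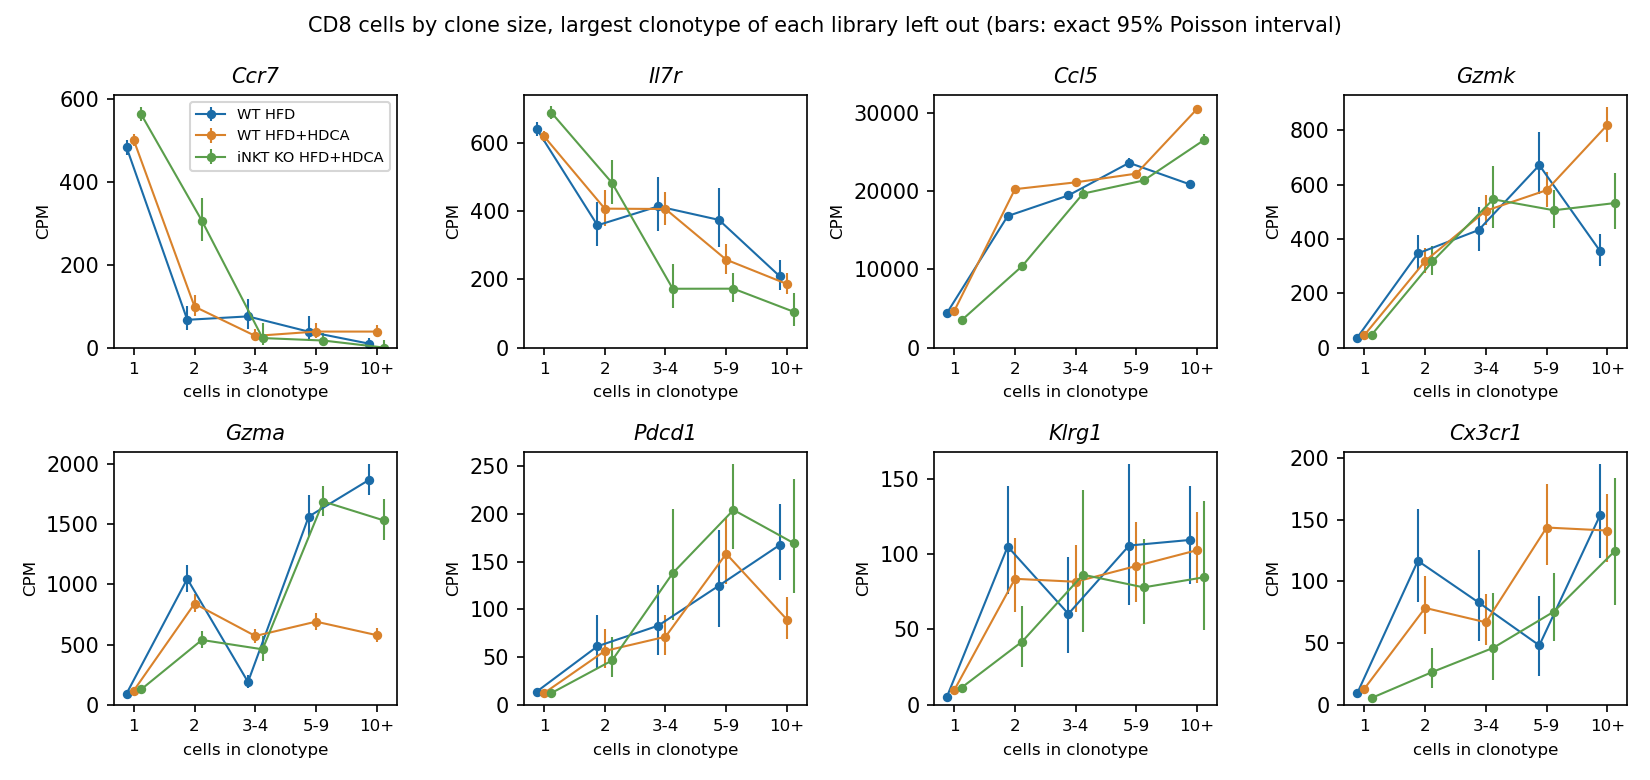
CPM in CD8 cells (vertical) by clone size in barcodes (horizontal), 1 line per library with exact 95% Poisson intervals, for 8 genes. Ccr7 and Il7r fall and Ccl5, Gzmk and Pdcd1 rise from size 1 to size 2 in each library.

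A class sum can be carried by few clones, since cells of a clone share their source. Gzmk was spread widely among CD8 clones, with UMIs in 12 of 12, 23 of 24 and 13 of 13. Gzma was found in 10 of 12, 14 of 24 and 10 of 13 CD8 clones, and a single clone held 28.5%, 26.6% and 53.5% of its UMIs. Chemokines and dividing-cell genes were uneven: in WT HFD clonotype 3 held 75.1% of the Ccl3 and 68.8% of the Ccl4 UMIs of CD8 clones, and Mki67 lay for 74.2%, 50.9% and 59.6% in clonotypes 21, 6 and 20 of the 3 libraries. In the knockout all 10 Il10 UMIs of CD8 clones came from clonotype 17. Over all expanded clones, Havcr2 had UMIs in 6 of 18, 17 of 31 and 4 of 26. Clonotype 17 held 62.5% of its 24 UMIs in the knockout. Epha3 had UMIs in 7 of 18 expanded clones of WT HFD and 13 of 31 of WT HFD+HDCA. Clonotype 3 held 55.6% of its UMIs in WT HFD, and clonotype 9 held 32.5% in WT HFD+HDCA. Itga1 had UMIs in 8 of 12, 4 of 24 and 9 of 13 CD8 clones and in 5 of 5, 2 of 7 and 6 of 7 CD4 clones.

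CD4 sums, of fewer cells, could also rest on single clones. In WT HFD+HDCA clonotype 27 held 82.4% of the Il10, 50.5% of the Pdcd1 and 57.4% of the Tox UMIs of CD4 clones, and clonotype 28 all of the Ccl3 and Ccl4 UMIs. In the knockout clonotype 6 held 82.3% of the Gzma UMIs of CD4 clones. The myeloid gene Lyz2 was as uneven, with 97.6% of its UMIs in CD4 clones of WT HFD in clonotype 2 and 86.1% of those in CD8 clones of the knockout in clonotype 16.

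With 1 library per group no difference between diets or genotypes was tested, and the libraries are set side by side. Expanded cells of WT HFD had Gzma at 17.3 times the singleton level, against 5.09 in WT HFD+HDCA, and those of the knockout at 8.01 times. Ccl3 stood at ratios of 24.0 (18.8 to 30.8), 13.4 (11.1 to 16.1) and 5.28 (4.11 to 6.76), so the intervals of the 3 libraries do not meet. Tox stood at 1.81 (1.60 to 2.03), 3.46 (3.20 to 3.74) and 2.29 (2.05 to 2.55), highest in WT HFD+HDCA. These gaps include the weight of single clones given above.

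Expanded clones without a co-receptor were found in the knockout library alone, 6 of 26 clones against 0 of 18, which allows up to 18.5%, and 0 of 31, which allows up to 11.2%. They were clonotypes 3, 13, 15, 21, 29 and 33, with 44 barcodes and 41 kept cells, in which 1 co-receptor UMI was found, and 5 of the clones had none. The CD4 clones of this library had 0.6 to 2.22 Cd4 UMIs per kept cell, and in a clone of few cells a low Cd4 level and none cannot be told apart. Cd3e, a chain of the TCR complex, was at 1459 CPM against 1353 in the other expanded clones of the library. The genes below were chosen after their values were seen and are a description within a single library, with no test; ratios are to the other expanded clones with an interval of the counts. Zbtb16, the PLZF factor of NKT and other innate-like T cells, was at 71.6 against 12.0 CPM, a ratio of 5.95 (2.84 to 12.9), but in 2 of the 6 clones, 21 and 33.

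Itga1, Zfp683, Cd160 and Gzmb were high in these clones, whereas Gzmk was lower than in the other expanded clones. Gzma and Nkg7 were lower than in the CD8 clones but higher than in the CD4 clones. Gzmb was at 1718 CPM against 764, a ratio of 2.25 (2.01 to 2.52), and Itga1 at 396 against 119, a ratio of 3.34 (2.57 to 4.32). Cd160, a receptor of NK cells and cytotoxic T cells, was at 798 against 229.7 and Zfp683 at 365 against 102. Gzma was at 931 CPM against 1258, a ratio of 0.740 (0.647 to 0.843), with 243 of 273 UMIs in clonotype 15. CD8 clones alone had Gzma at 1553 CPM and CD4 clones alone at 681. Nkg7 was at 2421 against 2757, a ratio of 0.878 (0.808 to 0.953), with 3189 in CD8 clones and 1914 in CD4 clones. Clonotype 3, with 15 of the 41 kept cells, held 331 of 504 Gzmb, 144 of 234 Cd160, 51 of 107 Zfp683 and 51 of 116 Itga1 UMIs. Clone by clone the ranges met: Itga1 spanned 66.7 to 757 in clones without a co-receptor, 0 to 388 in CD8 clones and 0 to 396 in CD4 clones. Clonotype 29 had the lowest Itga1 and Zfp683 and the highest Gzmk of the 6.

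Other genes went both ways there. Tbx21 was at 303 CPM against 210, a ratio of 1.44 (1.12 to 1.85), and Klrg1 at 130 against 84.3, a ratio of 1.54 (1.02 to 2.27). Cxcr6 was higher too, at a ratio of 1.29 (1.06 to 1.56), and Ifng stood at 0.883 (0.612 to 1.25). Beside the CD4 clones alone, the count intervals of Tbx21, Klrg1 and Cxcr6 overlapped. For Cxcr6 they were 433 to 600 CPM and, in CD4 clones, 408 to 552. Klrg1 had 91.7 to 178 and 75.8 to 146, and Tbx21 244 to 373 and 191 to 293. The genes named next were lower. Gzmk was at 177 CPM against 433, and Pdcd1 at 30.7 against 197, with all of its UMIs in clonotype 29. Tox was at 116 against 360.3 and Il7r at 78.4 against 228. Il18r1, a subunit of the IL-18 receptor, had no UMI. Single clones also carried most UMIs of further genes: 54 of 65 Klra9 UMIs came from clonotype 15, 35 of 45 Mki67 UMIs from clonotype 3, and 461 of 467 UMIs of the myeloid gene Lyz2 from clonotype 21.

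**Figure D5:**
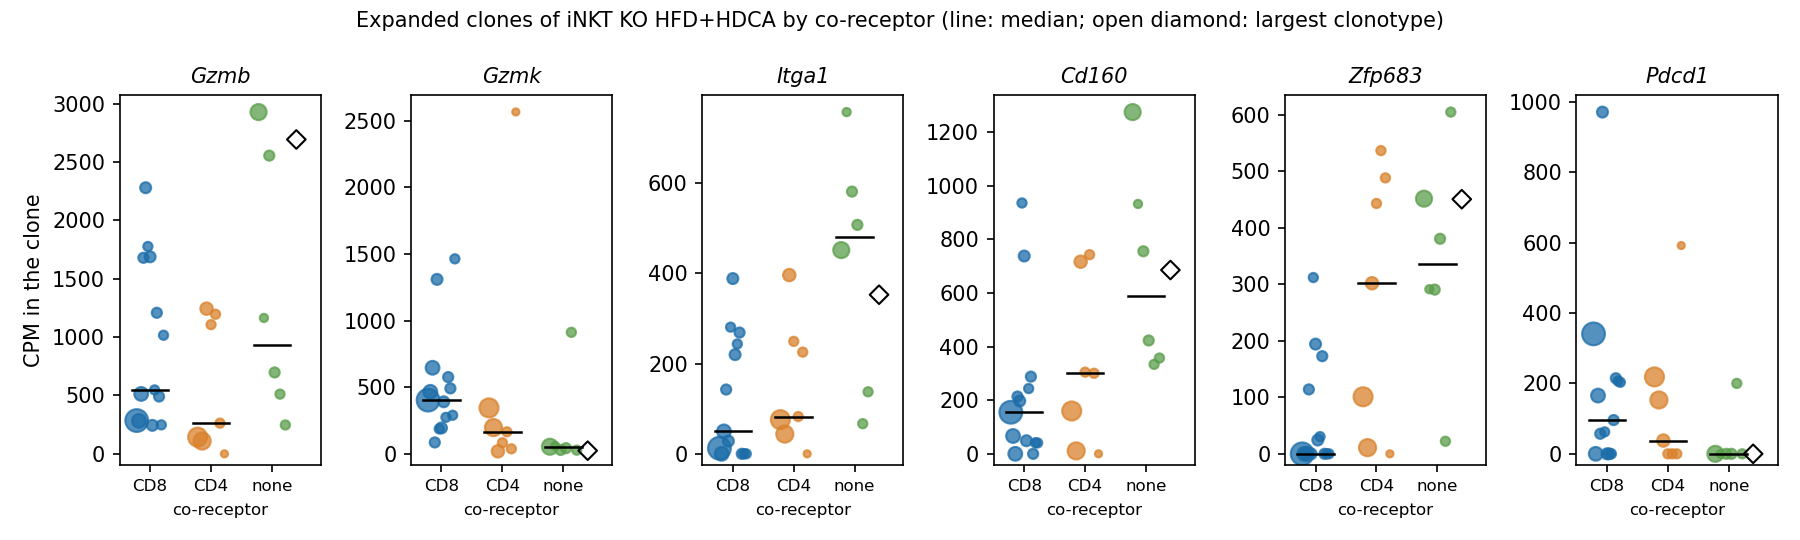
CPM (vertical) of 6 genes in each expanded clone of iNKT KO HFD+HDCA, by co-receptor of the clone (horizontal), with circle area set by the number of cells, a line at the median of the clones and an open diamond for the largest clonotype. All clones without a co-receptor but clonotype 29 have no Pdcd1 UMI.

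The largest clonotype of the knockout, outside the expanded class by the rule, resembled these clones in some of these genes. It had 1 Cd8b1 UMI and no other co-receptor UMI in 39 kept cells, with Gzmb at 2694, Itga1 at 352, Cd160 at 685, Zfp683 at 450.4 and Zbtb16 at 58.7 CPM, and no Pdcd1 UMI. Its Gzma and Gzmk were lower than in these clones, at 43.1 and 23.5 CPM against 931 and 177. Among the 6 clones without a co-receptor, clonotypes 3, 13 and 21 used the same α segments as the largest clonotype, TRAV13N-3 joined to TRAJ50.

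That α rearrangement was common among expanded knockout clones. In Jα18-deficient mice, CD1d-restricted NKT cells with a Vα10 (TRAV13) to Jα50 receptor and often Vβ8 (TRBV13) chains have been described, which recognise glycolipids without the invariant Jα18 chain. Here TRAV13-family segments joined to TRAJ50 were used by 5 of 26 expanded clones of the knockout (19.2%, exact interval 6.55% to 39.4%), with 43 barcodes, and by 8 of 1529 singletons (0.523%, 0.226% to 1.03%). Clonotypes of 2 to 4 gave 2 of 72. In WT HFD it was 1 of 18 expanded clones and 2 of 1569 singletons. In WT HFD+HDCA it was 0 of 31 expanded clones, which allows up to 11.2%, and 6 of 2229 singletons. TRAV13N-3 itself, with any J segment, was used by 4 of 1649, 1 of 2391 and 17 of 1628 clonotypes of the 3 libraries. No expanded clone of WT HFD used it, so the clone counted there had another segment of the family. The set was chosen after the values were seen and clone size came from the same contigs, so the shares are a description.

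The α CDR3 of the knockout clonotypes of 5 or more with this join are printed next, the left-out largest included, because they differ in few bases. Capitals mark the positions, 7 to 13 from the 5′ end, at which the 16 knockout clonotypes with the join differ.

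iNKT KO HFD+HDCA clonotype 1, 41 cells, β chain TRBV13-1: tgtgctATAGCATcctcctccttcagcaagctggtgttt
iNKT KO HFD+HDCA clonotype 3, 16 cells, β chain TRBV12-2+TRBV13-2: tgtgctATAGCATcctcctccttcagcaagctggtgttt
iNKT KO HFD+HDCA clonotype 7, 10 cells, β chain TRBV13-1: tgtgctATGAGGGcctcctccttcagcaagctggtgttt
iNKT KO HFD+HDCA clonotype 13, 6 cells, β chain TRBV12-2+TRBV13-2: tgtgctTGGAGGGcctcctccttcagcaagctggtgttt
iNKT KO HFD+HDCA clonotype 21, 6 cells, β chain TRBV12-2+TRBV13-2: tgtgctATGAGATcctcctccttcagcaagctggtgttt
iNKT KO HFD+HDCA clonotype 26, 5 cells, β chain TRBV12-2+TRBV13-2: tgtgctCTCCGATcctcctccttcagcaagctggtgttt

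All 16 clonotypes used TRAV13N-3 and had an α CDR3 of 39 bases, with 10 distinct sequences that differed at 7 positions. The same α CDR3 recurred in 5 groups of clonotypes that the authors' numbering kept apart: 1 with 3, 7 with 12 and 1773, 21 with 1676, 26 with 1544, and 110 with 576. Of the β chains, 15 of 16 were of the TRBV13 family, counting those that the pipeline named TRBV12-2+TRBV13-2. The 91 kept cells of the 16 clonotypes had 47 Cd4 UMIs and 1 Cd8b1 UMI in all, and clonotypes 7 and 26 were called CD4. Clonotype 7 resembled the clones without a co-receptor in Gzmb, Itga1, Cd160 and Zfp683, at 1244, 396, 716 and 302 CPM. No ligand or CD1d tetramer was measured, so what these receptors bind is not known from these data.

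Other receptor segments of expanded clones lay near those of singletons or rested on few clones. In WT HFD+HDCA TRBV16 was used by 7 of 31 expanded clones (22.6%) and 6.19% of singletons, and TRBV3 by 19.4% and 8.48%. In the knockout TRBV12-2+TRBV13-2 served 30.8% of expanded clones and 11.4% of singletons. Those clones include clonotypes 3, 13, 21 and 26, described above for their TRAV13N-3 to TRAJ50 join. The median CDR3 was 42 bases long for both chains, in both classes and in every library.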

How the data were processed

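UMI counts per gene and barcode, and UMIs and reads per TCR contig with its clonotype number, were used as the authors deposited them. Cell Ranger 8.0.1 and the builds mm10 and GRCm39 are named, without roles, per the submitters' processing notes. Clone size was counted over all barcodes meeting the TCR rule. Cells with at least 200 of 33696 genes, under 10% mitochondrial UMIs and no Scrublet doublet call (scanpy 1.11.5) entered the gene comparison. UMIs were summed per library and class and tested with edgeR 4.0.16 (R 4.3.3; TMM, filterByExpr, quasi-likelihood, library as a block, Benjamini-Hochberg adjustment over all genes tested, threshold 0.05); a standard error (SE) is the log2 fold change over the root of F. The block pairs the 2 classes of a library, which come from the same suspension. The edgeR fit was tested on simulated counts for all, CD8, CD4 and gated CD8 cells. Those counts had no clones in them, and the other steps were not simulated.

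Members and gene lists were chosen with earlier results of these data known. Named genes were the 10 highest and 10 lowest of all cells (6 and 6 elsewhere) with an adjusted p under 0.05, the same sign in 3 libraries and 100 UMIs in the 6 sums, without TCR, immunoglobulin, mitochondrial, ribosomal, sex-linked and unnamed genes, plus 20 genes reported in any case and members of 22 lists as examples. Alternatives covered normalization, test, filters, block, size threshold, depth and single libraries. A gene of the naive list, which also served in the gate on naive genes, is not reported here.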

Additional observations from a re-analysis of the deposited data

Results flagged for a closer look

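In each of the following, the ratio of expanded cells to singletons lay above 1 in some libraries and below 1 in others, with exact 95% intervals clear of 1. The libraries differ in diet or genotype and there is 1 of each, so the difference between them was not tested. Zbtb16 in all cells was at 3.33 times the singleton level in the knockout (2.17 to 5.0, 34 UMIs in expanded cells) and at 0 in WT HFD (0 to 0.558, no UMI). In CD4 cells Gzma stood at 29.8 in the knockout (21.8 to 41.6) and 2.85 in WT HFD+HDCA (1.53 to 4.99), but at 0.357 in WT HFD (0.0962 to 0.932), where it rested on 4 UMIs. Clonotype 6 held 82.3% of the 249 Gzma UMIs in all kept cells of the knockout's CD4 clones. Tox in CD4 cells stood at 0.346 in WT HFD (0.213 to 0.531), 2.41 in WT HFD+HDCA (1.95 to 2.96) and, for the knockout, 1.30 (1.01 to 1.64).

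Among CD8 cells without naive genes Cxcr6 stood at 1.5 in the knockout (1.13 to 2.02) and 0.672 in WT HFD+HDCA (0.512 to 0.881). Among CD4 cells without naive genes and Foxp3, Ccl5 stood at 2.76 in the knockout (2.51 to 3.04), 0.525 in WT HFD (0.458 to 0.599) and 0.484 in WT HFD+HDCA (0.407 to 0.572). Gzmk there stood at 3.68 in the knockout (1.96 to 7.42) and 0 in WT HFD (0 to 0.428). Pdcd1 there was lower in expanded cells of the knockout, at 0.576 (0.342 to 0.951), and in WT HFD+HDCA was at 1.78 (1.09 to 2.88).

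The largest clonotypes, which the comparison leaves out, held 3 signals above the level of the expanded clones beside them. In WT HFD the largest clonotype, a CD8 clone, had Il10 at 144 CPM (104 UMIs, in 33 cells) against 5.21 in the expanded clones, and Havcr2 at 314 (227 UMIs, in 64 cells) against 11.5. In the knockout the largest clonotype had Trdc, the constant gene of the δ chain, at 215 CPM (55 UMIs, in 26 cells) against 0.728 (1 UMI) in the expanded clones, although its cells carried an αβ receptor by the TCR contigs.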

How the results depend on the processing

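The main counts of genes called by edgeR were 2555 in all cells, 2678 in CD8 cells, 567 in CD4 cells, 4 in gated CD8 cells and 3 in gated CD4 cells. With DESeq2 they were 1590, 1389, 2 and 1 for all, CD8, gated CD8 and gated CD4 cells. With cells thinned to 2000 UMIs 1519, 1204 and 0 genes were called for all, CD8 and gated CD4 cells; fewer UMIs enter that fit. Without the filter on low counts CD4, gated CD8 and gated CD4 cells gave 908, 82 and 51. Leaving out each library gave 311 to 608 genes in CD4, 7 to 29 in gated CD8 and 0 to 51 in gated CD4 cells, and 1820 to 2796 and 2118 to 2604 in all and CD8 cells. Gated CD8 cells gave 1 gene with the largest clonotypes kept in, 1 without the second largest clonotype (an alternative added after seeing the data) and 0 with at most 5 cells per clonotype, a setting that gave 0 in gated CD4 cells too. At clones of 10 or more cells the CD8 share of expanded knockout cells was 35.1%, against 44.7%. The cause of these changes was not tested. Without the library as a block, gated CD8 cells gave 1 gene, and the other counts were 2730, 2738, 664 and 2, within 1.5 times the main ones.

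Of the named genes and called list members, 7 of 1801 values in CD8 cells changed sign: at clones of 10 or more cells Capg (-0.06), Fcer1g (-0.08) and Tmem176b (-0.23), without doublet removal Fcer1g (-0.14) and Tyrobp (-0.23), and Fcer1g with thinned cells (-0.19) and without cells of B cell or myeloid UMIs (-0.13). Calls were lost for 106 of 1862 values in all, 90 in CD8, 66 of 984 in CD4, 3 of 220 in gated CD8 and 10 of 142 in gated CD4 cells. Clones of 10 or more were not run in gated CD4 cells. Below the threshold in both fits, 42 of the 5009 values over all 5 comparisons, of 10 genes, changed sign as well. The gated sums held 15 to 78 cells; their part in the number of calls was not tested.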
